A study of Mus musculus with 26 samples.

Results

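The genes studied here encode the proteasome, the protease complex that degrades ubiquitin-tagged proteins. They were taken by symbol: all rows of the deposited tables whose symbol begins with Psma, Psmb, Psmc, Psmd, Psme, Psmf or Psmg followed by a digit, with Psmb8 and Psmb9 left out. The rule gave 45 genes of the 14833 listed in any table. Of these, 15 encode the core particle and 17 the regulatory particle. The remaining 13 are accessory genes: 7 assembly chaperones, 5 activators or inhibitors, and Psmc3ip, which matches by its name but encodes a partner of the meiotic recombination machinery and no proteasome subunit. Psma8 and Psmb11, the testis and thymus forms of the core, were not analysed here.

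The data are from RNA sequencing of mouse striatum, in 26 libraries that fall into 9 groups. R6/1 mice, which carry exon 1 of the human huntingtin gene with an expanded CAG repeat as a transgene, were compared with wild type at 4 weeks and at 8 weeks of age, and CHL2 mice, the other model of Huntington's disease in the labels, with wild type at 1 year (3 libraries per group). At 10 weeks, R6/1 mice given a control adeno-associated virus (AAV, 2 libraries) were compared with wild-type mice given the same control virus (2 libraries) and with R6/1 mice given an AAV carrying the transcription factor Elk-1 (4 libraries). The tables name the control vector mCherry. All groups of the 10-week experiment therefore carry a virus, and the same control AAV R6/1 pool serves in both of its comparisons. The transgene of R6/1 mice is a fragment of the gene and not the whole protein. The sources used here do not state the promoter of the vectors, the age at injection, the sex or strain background of the mice, or whether a library is a single animal.

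The proteasome is built from a barrel and a cap. The barrel, or core particle, stacks outer rings of alpha subunits (Psma genes), which gate the entry, on inner rings of beta subunits (Psmb genes), among which Psmb5, Psmb6 and Psmb7 carry the proteolytic sites. The cap, or regulatory particle, holds a ring of ATPases (Psmc genes) that unfolds substrates and pulls them in, scaffold and ubiquitin-binding subunits of the base (Psmd1, Psmd2, Psmd4), and a lid that carries the deubiquitinase Psmd14. Under interferon, cells exchange the proteolytic subunits for Psmb8, Psmb9 and Psmb10 and make the activator ring of Psme1 and Psme2. Aggregates of mutant huntingtin are known to stain for ubiquitin, and for that reason the proteasome has long been studied in this disease.

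Every expression value below is the authors' pooled FPKM of a group, a fragment count scaled to transcript length and to the size of the library. There is 1 value per group and gene and no value per library, so no standard deviation is given, and the depth of each library is unknown. A change is the difference of log2(FPKM + 1) between the second and the first group of a comparison. Because of the added 1, changes of weakly expressed genes come out too small. A gene counts as called below a q of 0.05, q being that of the authors' deposited table. The striatal projection neuron markers, such as Ppp1r1b, Drd1a and Penk, were detected in every group, with a summed level between 1156 and 3325 FPKM over 10 genes. Against wild type, 2 of the 10 were called lower in R6/1 at 4 weeks, 9 at 8 weeks and 9 at 10 weeks with control AAV, and 10 in CHL2 mice. In bulk tissue, fewer cells of a type and less RNA per cell cannot be told apart. Markers of neighbouring tissue also differed between pools, among them the hypothalamic list (5 genes detected, with sums of 61.1 FPKM in wild type and 425 in R6/1 under control AAV), and their part in the values of the proteasome genes was not tested. In the 10-week genotype comparison, the lowest change of all genes kept was that of Eif2s3y, a gene of the Y chromosome (-3.72). The sex balance of those pools may therefore differ, and its part in the values was not tested. Elk1 itself stood at 15.1 FPKM with control AAV and 30.1 with Elk-1 AAV in R6/1 mice. That difference was called (q = 0.0122 in the authors' deposited table), and reads from the vector and from the mouse gene cannot be told apart.

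Proteasome genes were among the well-expressed genes of the striatum, and their order hardly differed between groups. In wild type at 8 weeks the median core subunit stood at 59.9 FPKM and the median regulatory subunit at 51.1, against 10.4 for all genes kept. Across the 45 genes, Spearman's rank correlation between any pair of the 10 group columns was between 0.958 and 1. It is a correlation across genes, which are not independent replicates, and some columns share libraries. Within the alpha ring at 8 weeks, Psma6 was highest at 88.9 FPKM and Psma5 lowest at 2.97. Within the beta ring, Psmb4, a structural subunit, was highest at 128 FPKM and Psmb3, another structural subunit, lowest at 1.93. The ATPases lay closer together, from Psmc1 at 40.7 to Psmc5 at 110 FPKM, as did the scaffold and ubiquitin receptor subunits, from Psmd1 at 46.8 to Psmd4 at 67.8. In the lid, Psmd3 reached 66.4 FPKM while Psmd11, a scaffold of the lid, stood at 7.42. Assembly chaperones were lower, from Psmd9 at 9.42 to Psmd5 at 23.5 FPKM. Among activators and inhibitors, Psme3, the nuclear activator ring, was highest at 42.8 and Psme2 lowest at 5.88 FPKM. Psmc3ip stood at 3.16 FPKM. It shares its listed position with Mlx, so its reads may be those of that gene.

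Subunits that sit in the assembled particle in equal number were thus listed at levels up to 66.4-fold apart within the core particle and 14.9-fold apart within the regulatory particle. The low values went with copies elsewhere in the genome. Psmb3 has 7 near-identical copies in the GENCODE M21 annotation, the closest 97.1% identical to its coding sequence. Psma3 has 3 (100%), Psma5 has 2 (98.9%), Psmd11 has 1 (98.0%) and Psme2 has 2 (99.3%). A copy was counted from 90% identity over 80% of the coding sequence. The sources used here do not state how reads were split between a gene and its copies, so the levels of these genes are uncertain. Other subunits with a copy were listed at high levels, among them Psmd2 at 52.6 FPKM in wild type at 8 weeks with 1 copy of 96.4% identity. Of the core particle, 8 of 15 genes had such a copy, and of the regulatory particle, 4 of 17. Over genes without one, the core median was 82.6 FPKM in wild type at 8 weeks and the regulatory median 54.0. The ratio of these medians was 1.53, against 1.17 over all subunits. In every one of the 10 group columns the core median exceeded the regulatory median, by 1.16- to 1.32-fold over all subunits and by 1.48- to 1.78-fold over those without a copy.

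**Figure D1:**
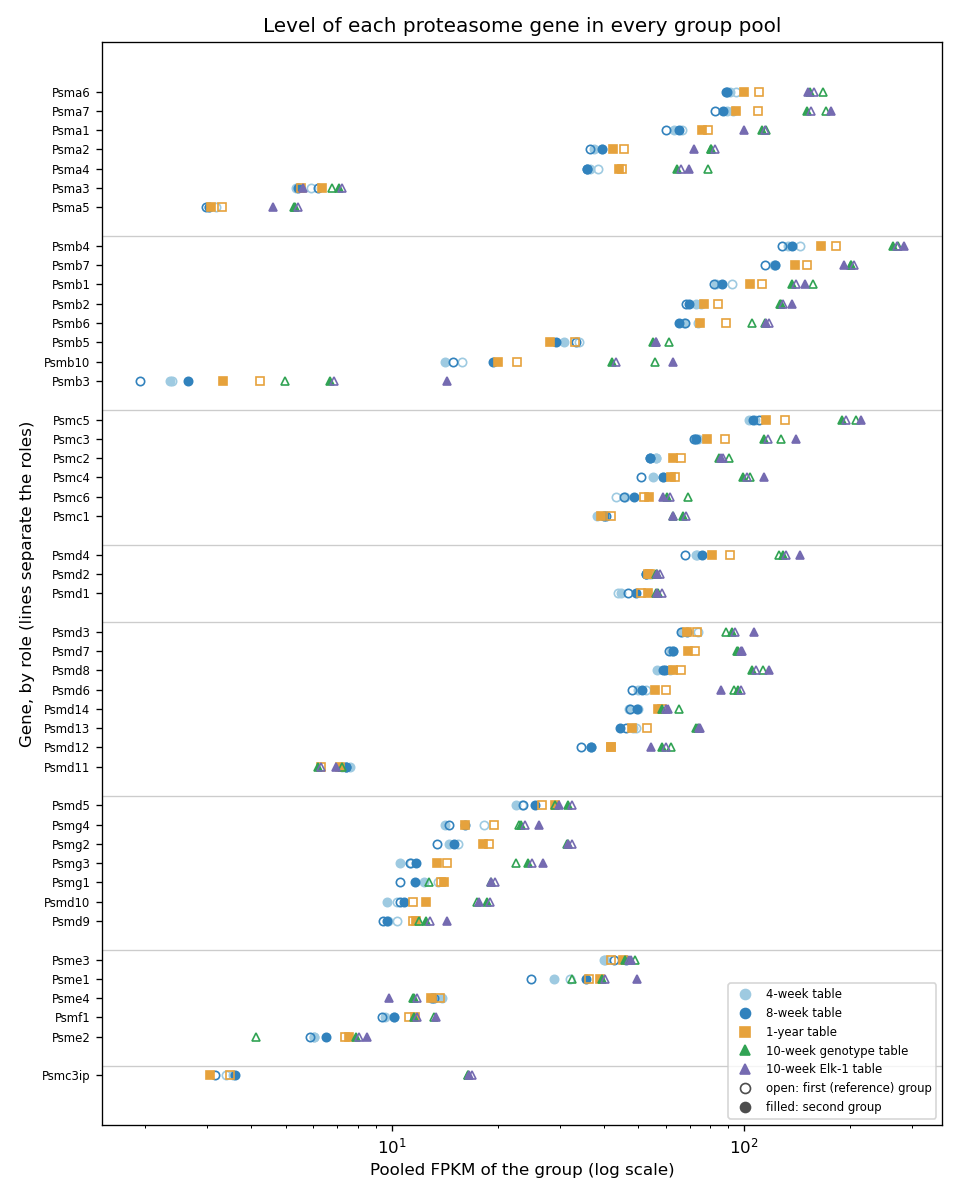
Pooled FPKM of each gene (log axis) in the 10 group columns of the 5 tables, ordered by role and by level in wild type at 8 weeks. Open symbols are the first group of a table and filled symbols the second. Psmb3, Psma5 and Psma3 lie apart from the other subunits of their rings in every table, and Psmd11 from the other subunits of the lid. The 10-week values lie to the right for most genes.

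At 4 weeks every core gene had a slightly lower value in R6/1 than in wild type, and no proteasome gene was called. The 15 core changes ran from -0.15 for Psmb10, the interferon-inducible proteolytic subunit, to -0.01 for Psmb7, with a median of -0.07. The regulatory median was -0.03, with 13 of 17 genes lower. All 7 assembly chaperones also had lower values. The largest difference was that of Psmg4, a chaperone of alpha ring assembly, at 18.3 FPKM in wild type and 14.2 in R6/1 (change -0.34, p = 0.0651 and q = 0.973 in the authors' deposited table). Next came Psmb10 (15.8 and 14.1 FPKM) and Psme1 (32.1 and 28.9 FPKM). The highest changes were 0.10 for Psme4, an activator cap of the nucleus, 0.08 for the ATPase Psmc6 and 0.06 for Psmd11. By the authors' Cuffdiff test 0 of 45 genes were called, where 0.468% of all genes were called, and 0 had an unadjusted p below 0.05, where 5.36% of all genes had one. All genes kept had a median change of 0.00, with 49.5% lower, and those with a transcript under 1500 bases one of -0.09, with 76.8% lower.

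At 8 weeks most proteasome genes had slightly higher values in R6/1, and again none was called. Core genes were higher in 12 of 15 cases (median 0.07), regulatory genes in 12 of 17 (median 0.04) and accessory genes in 12 of 13 (median 0.11). All genes kept had a median of 0.01, with 48.6% lower. Psme1, which forms the interferon-inducible activator with Psme2, stood at 24.8 FPKM in wild type and 35.7 in R6/1. Its change was 0.51 and it came nearest to a call (p = 0.0046, q = 0.0672 in the authors' deposited table). Psmb10 stood at 14.9 and 19.4 FPKM (change 0.36, p = 0.0237 and q = 0.220 in the authors' deposited table). Psmb3 followed at 1.93 and 2.65 FPKM (change 0.31). The lowest changes were those of Psmb5, the subunit with chymotrypsin-like activity, at 33.3 and 29.3 FPKM (-0.18), of Psma3 at 6.18 and 5.43 FPKM (-0.16) and of the ATPase Psmc5 at 110 and 106 FPKM (-0.06). By the authors' Cuffdiff test 0 of 45 genes were called, where 6.12% of all genes were called. An unadjusted p below 0.05 was listed for 2 of the 45, Psmb10 and Psme1, and for 14.3% of all genes.

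In CHL2 mice at 1 year, core genes had lower values than in wild type in 14 of 15 cases, with a median change of -0.13. All genes kept had a median of 0.00, with 49.5% lower, and those with a transcript under 1500 bases one of -0.13, with 75.5% lower. The 8 beta ring genes were all lower, from -0.27 for Psmb3 (4.22 and 3.32 FPKM) to -0.11 for Psmb7. Psmb6, the subunit with caspase-like activity, stood at 88.7 FPKM in wild type and 75.0 in CHL2 (change -0.24, p = 0.0423 and q = 0.344 in the authors' deposited table). Psma3 was the exception in the core, with 5.53 and 6.33 FPKM (change 0.17). The regulatory median was -0.08, with 13 of 17 genes lower, Psmc5 lowest at -0.18 and Psmd11 highest at 0.16. Accessory genes showed no such direction, with 5 of 13 lower and a median of 0.03. Among them Psmg4 had the lowest change, at 19.5 and 16.1 FPKM (-0.26), and Psmd10, a chaperone of the regulatory base also known as gankyrin, the highest (0.12). By the authors' Cuffdiff test 0 of 45 genes were called, where 3.65% of all genes were called. An unadjusted p below 0.05 was listed for 1 of the 45, Psmb6, and for 13.3% of all genes.

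At 10 weeks, with control AAV in both genotypes, the 2 highest changes were those of accessory genes and the 3 lowest those of particle subunits. Psme2, the second subunit of the interferon-inducible activator, stood at 4.11 FPKM in wild type and 7.90 in R6/1 (change 0.80, p = 0.0657 and q = 0.539 in the authors' deposited table). Psmg1, a chaperone of alpha ring assembly, stood at 12.8 and 19.2 FPKM (change 0.55), and Psmb3 at 4.97 and 6.69 FPKM (0.37). Psmb10 was lower in R6/1, at 55.8 and 42.2 FPKM (change -0.40, p = 0.0583 and q = 0.504 in the authors' deposited table). Psma4 (79.0 and 64.5 FPKM, change -0.29) and Psmc6 (69.2 and 60.3 FPKM, change -0.20) came next. The core median was -0.04 with 12 of 15 genes lower, and the regulatory median -0.06 with 10 of 17 lower, against a median of 0.01 and 47.6% lower over all genes kept. All 7 assembly chaperones had higher values in R6/1, with a median of 0.09. By the authors' Cuffdiff test 0 of 45 genes were called, where 3.24% of all genes were called, and 0 had an unadjusted p below 0.05, where 10.7% of all genes had one.

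With Elk-1 AAV in R6/1 mice, 23 of the 45 genes had a higher value and 22 a lower one, and none was called. Psmb3 stood at 6.85 FPKM with control AAV and 14.4 with Elk-1 AAV (change 0.97, p = 0.0123 and q = 0.570 in the authors' deposited table). Psmb10 stood at 43.2 and 62.9 FPKM (change 0.53, p = 0.0043 and q = 0.341 in the authors' deposited table). Psme1 stood at 40.4 and 49.5 FPKM (change 0.29). The lowest changes were those of Psma3 at 7.24 and 5.60 FPKM (-0.32), Psme4 at 11.8 and 9.85 FPKM (-0.24) and Psma1 at 115 and 99.7 FPKM (-0.20). The alpha ring had a median of -0.19 (5 of 7 genes lower) and the beta ring one of 0.08 (3 of 8 lower). That alpha median is the value of Psma5, whose level is uncertain because of its copies. Of the alpha genes without a copy, Psma1 and Psma6 were lower and Psma7 was higher (154 and 177 FPKM). Summed levels with control and Elk-1 AAV were 588 and 581 FPKM for the alpha ring and 970 and 1011 for the beta ring. The core median was -0.00 and the regulatory median 0.01, as for all genes kept (0.01). By the authors' Cuffdiff test 0 of 45 genes were called, where 0.575% of all genes were called. An unadjusted p below 0.05 was listed for 2 of the 45, Psmb3 and Psmb10, and for 4.91% of all genes.

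**Figure D2:**
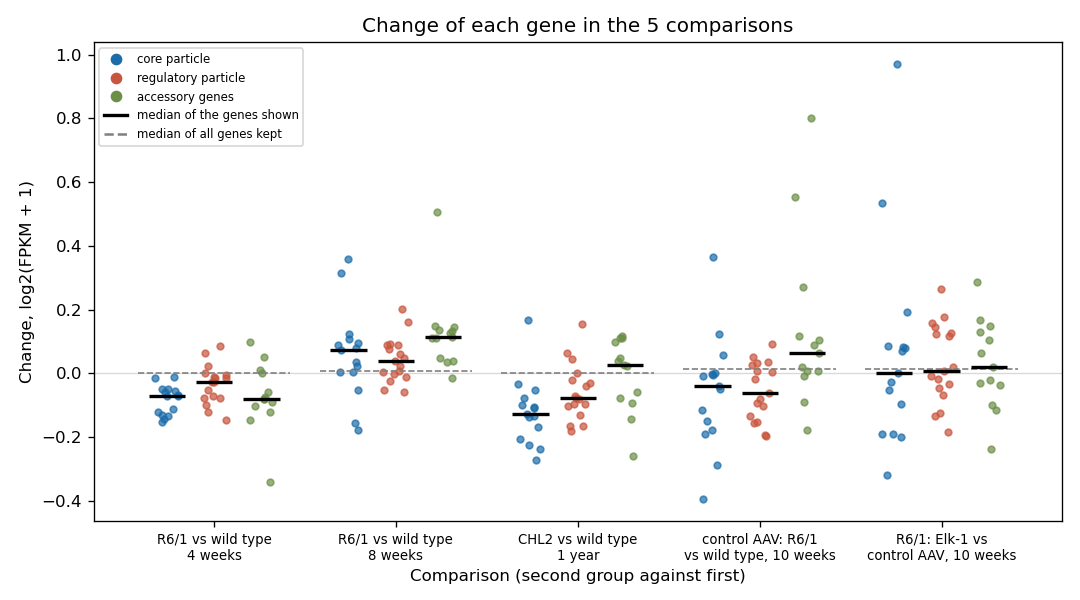
Change in log2(FPKM + 1) of each gene in the 5 comparisons, second group against first. Points are genes, black bars the median of the genes shown and dashed lines the median of all genes kept. At 4 weeks all 15 core points lie below 0, and in CHL2 mice 14 of 15 do. In the 10-week comparisons single genes (Psme2, Psmg1, Psmb3, Psmb10) stand away from the rest.

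The core median minus the regulatory median was -0.04 at 4 weeks, 0.03 at 8 weeks, -0.05 in CHL2 mice, 0.02 in control AAV R6/1 against control AAV wild type and -0.01 with Elk-1 AAV. If the deposited test statistic is the log2 fold change over its standard error, the median standard error of a single proteasome gene was 0.18, 0.21, 0.19, 0.26 and 0.26 in the same order. These errors are those of single genes and give none for a median over many. The deposited p-values do not follow exactly from these errors under a normal distribution, so the errors are uncertain. Genes of 1 pool are not replicates, so no test of the difference between the particles was made. Of the 225 changes (45 genes in 5 comparisons), 202 lay within 0.2 of 0 and 220 within 0.5. For 30 of the 45 genes, all 5 changes lay within 0.2. Psmb5 and Psmd13, a lid subunit, were the genes whose value was lower in the second group in all 5 comparisons, with changes no larger than 0.23 and 0.13 in size. With Elk-1 AAV, where both groups are R6/1, the differences were slight. Psmb5 stood at 56.4 and 56.3 FPKM and Psmd13 at 74.8 and 74.3 there. The 2 comparisons at 10 weeks share a pool, so these directions are not independent. The share of all genes with a lower value in all 5 was not counted.

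With 1 exception, changes of proteasome genes with a mean of 20 to 200 FPKM lay below the smallest that the authors' test called at those levels. Among genes with a mean of 20 to 200 FPKM, the smallest called change was 0.40 at 4 weeks, 0.37 at 8 weeks, 0.34 in CHL2 mice, 0.58 in the 10-week genotype comparison and 0.64 with Elk-1 AAV. The largest change of a proteasome gene in that range was 0.15 (Psme1), 0.51 (Psme1), 0.24 (Psmb6), 0.40 (Psmb10) and 0.53 (Psmb10) in the same order. Within that range, Psme1 at 8 weeks was therefore the gene that exceeded the smallest called change and was not called itself. The larger changes of Psmb3 with Elk-1 AAV (0.97) and of Psme2 in the 10-week genotype comparison (0.80), also not called, belong to genes below that range.

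At 4 weeks and in CHL2 mice, short transcripts as a whole had lower values, as the core genes did, while in the 10-week comparisons short transcripts and short core genes differed. The longest transcript of a core gene had a median of 1239 bases, against 1983 for regulatory genes, in GENCODE M21. At 4 weeks, the 1424 genes with a transcript under 1500 bases had a median change of -0.09, with 76.8% lower, and the 9 core genes in that range had a median of -0.07. The 7640 genes of 3000 bases or more had a median of 0.04, with 35.3% lower. In CHL2 mice the short genes had a median of -0.13, with 75.5% lower, and the 9 short core genes a median of -0.14. Genes of 3000 bases or more had a median of 0.05 there. At 8 weeks the medians of short and long genes were 0.03 and -0.01, and the 9 short core genes had 0.02. In the 10-week genotype comparison the short genes had a median of 0.06, with 41.9% lower, whereas 8 of the 9 short core genes were lower, with a median of -0.05. With Elk-1 AAV the short genes had a median of 0.07 and the short core genes -0.00. In the range of 1500 to 3000 bases, the 6 core genes had medians below those of all genes at 4 weeks and in CHL2 mice. Their medians were -0.06 (6 of 6 lower) and -0.11 (5 of 6 lower), beside -0.04 and -0.04 for all genes in that range. The regulatory genes in it had -0.03 and -0.08. Lengths were found for 90.4% of the genes kept in the 4-week table and for all 45 proteasome genes. These lengths are those of the longest annotated transcript, which was not checked to be the one expressed. The core genes of 1500 to 3000 bases have coding sequences from 618 (Psmb3) to 834 bases (Psmb7). Those of the short core genes run from 606 (Psmb2) to 822 bases (Psmb10), so the split between these ranges is uncertain for the core. The part of length in these values was not tested.

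**Figure D3:**
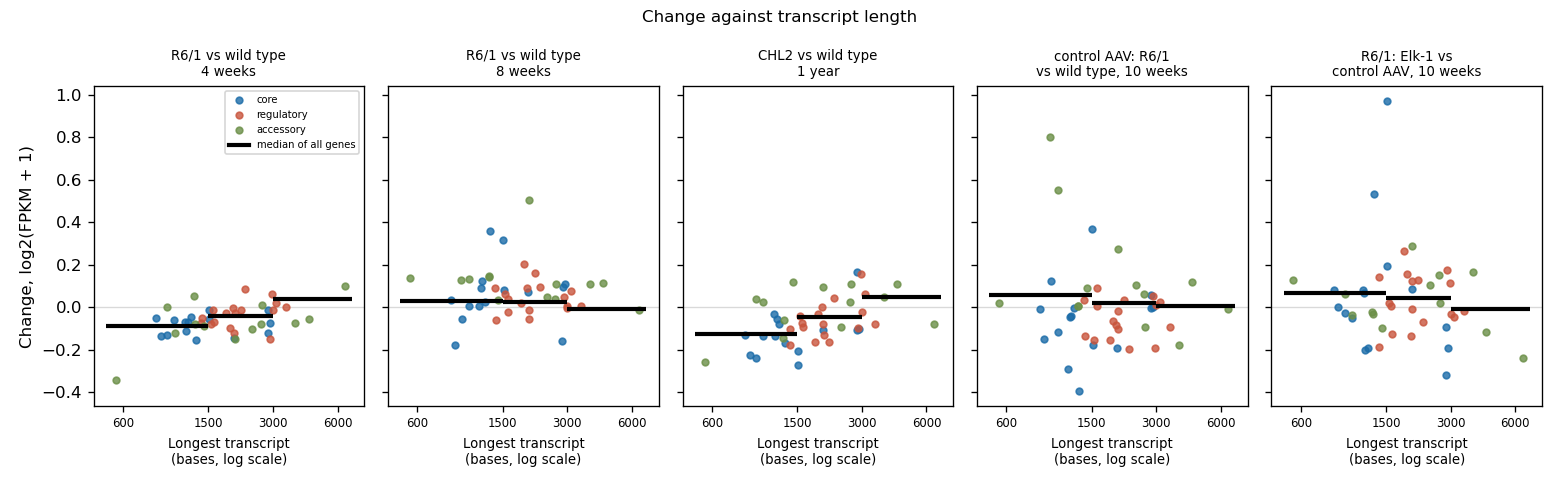
Change in log2(FPKM + 1) of each proteasome gene against the length of its longest transcript (log axis), by comparison. Black bars are medians of all genes kept, in bins under 1500, 1500 to 3000 and from 3000 bases. At 4 weeks and in CHL2 mice the bars step upwards with length, from -0.09 to 0.04 and from -0.13 to 0.05. Core genes under 1500 bases have medians of -0.07 and -0.14 there, against bars of -0.09 and -0.13. Core genes of 1500 to 3000 bases have medians below the bar of their bin in both (-0.06 and -0.11 against -0.04).

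Absolute levels were higher in the 10-week tables than in the others, and more so for the core. The tables were normalized separately and the 10-week mice differ in age and virus, so these values are set side by side only. Control AAV wild type at 10 weeks exceeded wild type at 8 weeks for 42 of 45 genes. The median ratio was 1.91 for core genes and 1.60 for regulatory genes, against 1.07 for all genes. The exceptions were Psmd11, Psme2 and Psme4. Short genes as a whole had a median ratio of 1.70 and genes of 3000 bases or more 0.888. The highest ratio was that of Psmc3ip (5.19), followed by Psmb10 (3.74), at 14.9 FPKM in wild type at 8 weeks and 55.8 in control AAV wild type. The shared control AAV R6/1 pool was listed 1.02-fold higher in the Elk-1 table than in the genotype table for every gene of the 45.

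Psmb10, the interferon-inducible subunit of the core, differed in the same direction as the sum of 4 other interferon-response genes in all 5 comparisons. Psmb10 was lower in R6/1 at 4 weeks, in CHL2 mice and at 10 weeks with control AAV, and higher in R6/1 at 8 weeks and with Elk-1 AAV. The sum of Ifit1, Ifit3, Isg15 and Irf7 was 7.51 and 6.50 FPKM at 4 weeks, 6.20 and 9.52 at 8 weeks, and 14.0 and 9.78 in CHL2 mice. In the 10-week tables that sum was 22.3 FPKM in wild type and 10.3 in R6/1 under control AAV, and 10.5 and 54.9 in R6/1 under control and Elk-1 AAV. Of those 4 genes, 0, 1, 0, 1 and 4 were called in the 5 comparisons, and none of the 4 was at 0 in any pool. At 4 weeks 3 of the 4 were lower and 1 was higher, while in the other comparisons all 4 went the way of their sum. The 10 microglial markers had sums of 418 FPKM under control AAV and 658 under Elk-1 AAV in R6/1 mice, with all 10 higher and 4 called (C1qa, C1qb, C1qc and Ctss). In the 10-week genotype comparison their sums were 516 and 408 FPKM, with 9 of 10 lower. The part of either list in the value of Psmb10 was not tested. Psmb8 and Psmb9, the other inducible proteolytic subunits, which the rule leaves out, stood at 12.6 and 12.7 FPKM in control AAV wild type and at 4.71 and 1.78 in control AAV R6/1. With Elk-1 AAV they were listed at 12.5 and 9.29 FPKM. Psmb9 was called lower in the genotype comparison (q = 0.0300 in the authors' deposited table). At 4 weeks Psmb8 stood at 2.22 FPKM in wild type and 2.22 in R6/1, and Psmb9 at 1.30 and 0.977. Psme2 did not follow the pattern of Psmb10, with its lowest value of 4.11 FPKM in control AAV wild type, where Psmb10 was at 55.8. Psme1 went the other way from Psmb10 in CHL2 mice (36.3 FPKM in wild type and 38.9 in CHL2). It also did so in the 10-week genotype comparison (32.5 FPKM in wild type and 39.45 in R6/1). In the remaining comparisons Psme1 and Psmb10 went the same way. Psme1 shares its listed position with Fam158a and has 1 copy of 90.3% identity, which adds to the uncertainty of its level.

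**Figure D4:**
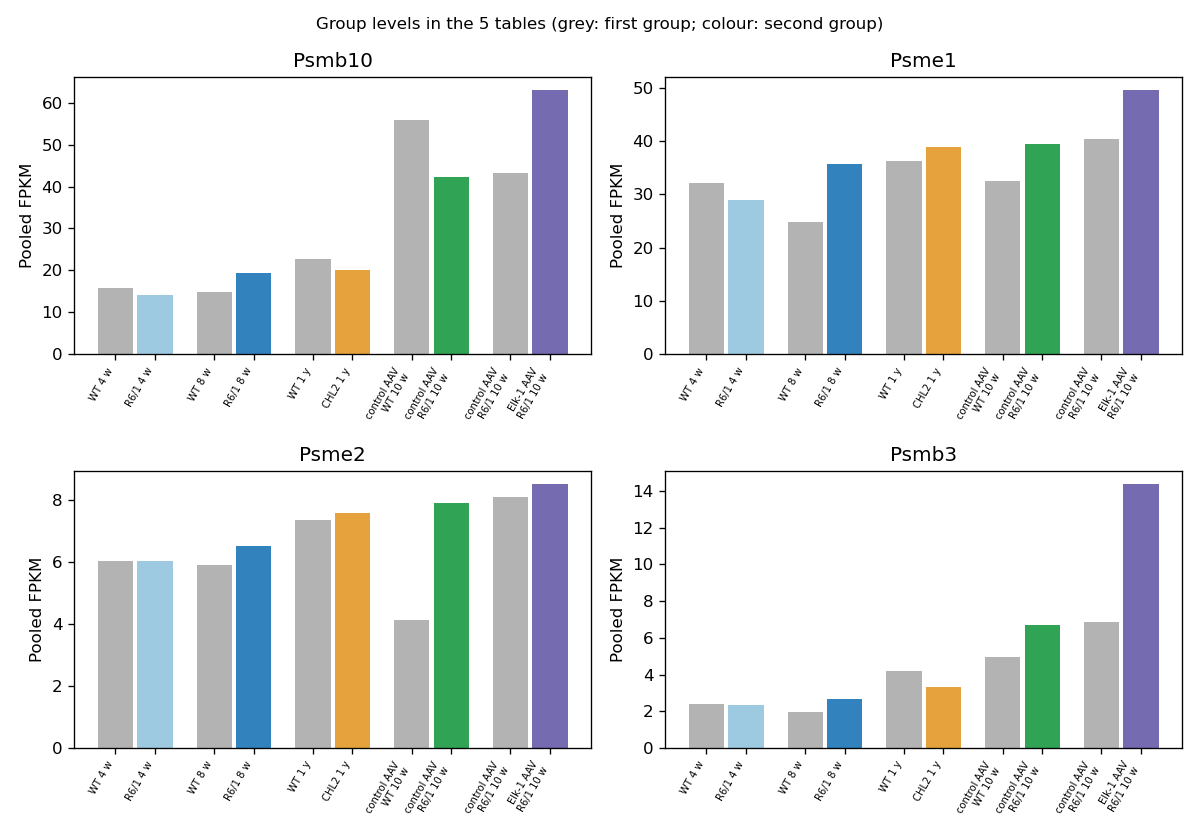
Pooled FPKM of Psmb10, Psme1, Psme2 and Psmb3 in the 10 group columns of the 5 tables. Grey bars are the first group of each table and coloured bars the second. Psmb10 is between 14.1 and 22.6 FPKM in the 4-week, 8-week and 1-year tables and between 42.2 and 62.9 in the 10-week tables, and Psmb3 is highest with Elk-1 AAV at 14.4.

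On the mm9 positions of the tables, Psmb10 lies at chr8:108459627-108462292, Psme1 at chr14:56197330-56204091 and Psmb3 at chr11:97564747-97574814. These are the 3 genes of the set with the lowest p in the authors' deposited table. Their promoters are shown as the 250 bases before the RefSeq start on GRCm38.p6, which is another build than that of the tables. Capitals mark letters found by a search on both strands for 7 elements. The ETS core, bound by the family of Elk-1, was searched as CCGGAAG. The antioxidant-type element was searched as TGACNNNGC. The CCAAT box was searched by those letters. The GC box was searched as GGGCGG, and the CArG box and the interferon-stimulated element by their consensus. The GAS element, an element of the interferon-gamma response, was searched as TTCNNNGAA. The GAS and interferon-stimulated elements were added after the values were seen. Matches of different elements can overlap, as in the Psma6 promoter, where a CCAAT match lies within the CArG match.
Psmb10, chr8:105938393-105938642, minus strand: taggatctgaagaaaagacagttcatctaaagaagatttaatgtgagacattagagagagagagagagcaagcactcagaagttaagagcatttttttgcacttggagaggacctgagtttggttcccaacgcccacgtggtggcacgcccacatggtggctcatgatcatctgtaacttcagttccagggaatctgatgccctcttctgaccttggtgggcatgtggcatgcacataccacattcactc
Psme1, chr14:55578244-55578493, plus strand: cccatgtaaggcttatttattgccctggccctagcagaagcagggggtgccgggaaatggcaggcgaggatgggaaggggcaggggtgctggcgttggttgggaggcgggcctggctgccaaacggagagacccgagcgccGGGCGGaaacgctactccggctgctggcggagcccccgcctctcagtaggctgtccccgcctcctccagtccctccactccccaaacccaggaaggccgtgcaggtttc
Psmb3, chr11:97703184-97703433, plus strand: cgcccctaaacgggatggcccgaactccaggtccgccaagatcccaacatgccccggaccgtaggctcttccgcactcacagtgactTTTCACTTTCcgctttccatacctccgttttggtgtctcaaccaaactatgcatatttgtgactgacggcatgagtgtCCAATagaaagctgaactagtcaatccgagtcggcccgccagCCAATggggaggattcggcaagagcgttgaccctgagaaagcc
In the Psmb10 window none of these letters were found. The Psme1 window held 1 GC box, and an interferon-stimulated element was found past the printed part, 9 bases after the start. The Psmb3 window held the interferon-stimulated element on the minus strand and CCAAT at 2 places. A match is a description of letters and not of binding.

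Since Elk-1 is an ETS factor, the ETS core was counted over the promoters of the set, from 250 bases before to 50 after the RefSeq start. The RefSeq promoter list used here held 41 promoters for 38 of the 45 genes. It held none under the symbols Psmb1, Psmb2, Psmb7, Psmc3, Psmd3, Psmd7 and Psmg2. The ETS core was in 16 of the 41 (39.0%), against 8.86% of all 32851 promoters in the table and 17.2% of the 8576 promoters of genes with a mean of at least 5 FPKM. It was in 10 of 15 regulatory promoters, 1 of 13 core promoters and 5 of 13 accessory promoters. The antioxidant-type element was in 14.6% of the 41 and 12.4% of all promoters, CCAAT in 31.7% and 37.4%, and the GC box in 56.1% and 35.7% (64.2% for genes with a mean of at least 5 FPKM). The CArG box was in 2.44% and 1.63%, the GAS element in 4.88% and 8.30%, and the interferon-stimulated element in 12.2% and 3.44%. The regulatory promoters whose ETS core lies nearest to the start are shown as windows of 25 bases on GRCm38.p6, with the core in capitals as it reads on the gene's strand.
Psmd13, chr7:140882379-140882403: cccgcggtgCCGGAAGtgagcgagc
Psmd11, chr11:80428595-80428619: agggcgggtCTTCCGGgtgtgtgtt
Psmd12, chr11:107479502-107479526: agcgggcgaCTTCCGGtgcgagtga
Psmc2, chr5:21786714-21786738: gcggagctaCTTCCGGtggggaaga
Psmd2, chr16:20651617-20651641: cgcagggcgCTTCCGGtctggagga
Of these 5 genes, 4 had a lower value with Elk-1 AAV than with control AAV. Psmd13 stood at 74.8 FPKM with control AAV and 74.3 with Elk-1 AAV, Psmd12 at 59.9 and 54.4, Psmc2 at 87.1 and 86.1, and Psmd2 at 57.8 and 56.5. Psmd11 was higher, at 6.32 and 6.93 FPKM. Of the 15 genes of the set with the ETS core, 4 had a higher value with Elk-1 AAV and 11 a lower one, with a median change of -0.03. Of the 23 genes with a promoter and no ETS core, 14 were higher and 9 lower, with a median of 0.07. Over all genes kept with a listed promoter, the median was 0.01 with the ETS core (1715 genes) and 0.01 without (7362 genes). Medians with and without the ETS core also differed where no Elk-1 AAV was given. At 4 weeks they were -0.01 (6 higher, 9 lower) and -0.08 (1 higher, 22 lower). They were 0.05 and 0.08 at 8 weeks, -0.08 and -0.05 in CHL2 mice, and -0.008 and -0.004 in the 10-week genotype comparison. No test of these medians was made.

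Genes that serve the proteasome from outside the symbol rule were also without a call, in lists so short that the shares called over all genes (0.468% to 6.12%) would give few or none. Of 15 listed subunits, shuttles and deubiquitinases, among them Adrm1, Usp14, Rad23b and Sqstm1, 0 were called in any of the 5 comparisons. Of 8 genes of maturation and transcriptional control, 0 were called. Pomp, the maturation factor of the core particle, stood at 106 and 104 FPKM in wild type and R6/1 at 8 weeks, and Nfe2l1, the transcription factor that raises proteasome genes when activity falls short, at 109 and 96.2 FPKM. Of 7 genes of ubiquitin supply and extraction, 0 were called. Ubb, a polyubiquitin gene, stood at 176 and 212 FPKM at 8 weeks (p = 0.0410 and q = 0.308 in the authors' deposited table). Among these genes an unadjusted p below 0.05 was also listed for Shfm1 (lower) and Uba6 (higher) in CHL2 mice, and for Uchl5 (lower) in control AAV R6/1 against control AAV wild type.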

How the data were processed

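Striatal total RNA was made into TruSeq libraries, per the labels' protocols. Reads were handled with Cuffdiff, Cufflinks, TopHat and Bowtie on mm9, per the submitters' processing notes, which give no versions. The sources used here state neither the annotation nor the strandedness of counting. The authors deposited 5 tables, 1 per comparison, with 1 pooled FPKM per group, and for each gene a log2 fold change, a p-value, a q-value and a test score. The deposited q is the p-value after Benjamini-Hochberg adjustment across all rows of a table. As no value per library was used, no test of library spread and no interval could be computed. Whether libraries are separate animals is not stated, so the p-values may reflect technical spread alone. Calls are the deposited q below 0.05.

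Changes were computed as log2(FPKM + 1) differences for genes with a mean of at least 0.5 FPKM, without microRNA and small nucleolar RNA rows; all 45 proteasome genes passed in each table. Named genes are the 3 largest rises and falls per comparison, the highest and lowest of each role in wild type at 8 weeks, and the exceptional subunits. The members and lists were chosen with earlier results of these data known. Copies were found with BLAST 2.17.0+ among GENCODE M21 transcripts. Promoters are from RefSeq (GRCm38.p6). Medians and the adjustment were tested on simulated data. Python 3.11.15 and pandas 2.3.3 were used. Some genes of the interferon and ubiquitin lists are not reported here.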

Additional observations from a re-analysis of the deposited data

How the results depend on the processing

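The number of called genes was recomputed with q below 0.01, q below 0.1 and an adjustment over genes with a mean of at least 0.5 FPKM. It stayed 0 in 14 of 15 recomputations. With q below 0.1 it was 1 at 8 weeks (Psme1). The 3 kinds of median were recomputed with a pseudocount of 0.1 or none, no filter or a mean of at least 5 FPKM, constitutive subunits only, centring on all genes, assembly chaperones in the regulatory particle and a mean in place of the median. Leaving out genes with a near-identical copy was added after seeing the data. Of these recomputed values, 34 of 35 core medians, 39 of 40 regulatory medians and 43 of 45 differences moved by less than 0.05. That limit is as large as most of the differences themselves, so it does not show that they are stable. Some settings also could not move a value. Centring leaves a difference as it is, constitutive subunits only leaves the regulatory genes unchanged, and no filter adds no proteasome gene. With the chaperones Psmd5, Psmd9 and Psmd10, the regulatory median of the 10-week genotype comparison was -0.00741 and the core minus regulatory difference -0.0336. Without genes that have a copy, the core median with Elk-1 AAV was 0.0687 and the difference 0.0615. In both 10-week comparisons the difference took either sign over the alternatives (from -0.0336 to 0.0382 and from -0.0205 to 0.0615); in the other 3 it kept its sign, from -0.049 to -0.0308 at 4 weeks, from 0.015 to 0.0422 at 8 weeks and from -0.0722 to -0.0396 in CHL2 mice. At 8 weeks the lowest value was that of constitutive subunits only. A mean in place of the median gave -0.00308 in the 10-week genotype comparison and 0.0321 with Elk-1 AAV, each of opposite sign to the median. No paired analysis was possible because each group has 1 pooled value per gene. Leaving out single libraries was not run for the same reason. Library depth is unknown, which limits what can be said of genes at a few FPKM, Psmb3 and Psma5 among them.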
